A study of Rattus norvegicus with 6 samples.

Results

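Gfap-low astrocytes are the barcodes of a rat hippocampus suspension that held much RNA of astrocyte genes and little RNA of Gfap, the intermediate filament gene by which astrocytes are often stained. A barcode was a member when it held at least 1500 unique molecular identifiers (UMIs, 1 per captured transcript) and at most 20% of them from mitochondrial genes. It also needed at least 5 UMIs of Gja1, Aqp4 and Slc1a3 together per 1000 UMIs, at most 3 of the C1q genes, under 1 of Mag, Mog, Ermn, Cldn11 and Mal, and under 2 of Gfap. The rule found 7189 members. They were 15.8% (15.5 to 16.2, exact 95% binomial interval) of the 45464 barcodes that passed the UMI and mitochondrial limits, and 76.7% (75.8 to 77.5) of the 9378 astrocyte barcodes. The other 2189 astrocyte barcodes, at 2 or more Gfap UMIs per 1000, are called Gfap-high, and 34855 passing barcodes below the floor of 5 for the astrocyte genes are called non-astrocyte. These intervals cover counting error only, since cells of 1 library are not replicates.

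The labels describe 3 control rats and 3 rats that received 20 Gy to the whole brain, with hippocampi taken 2 months later, all male. The labels state neither strain nor age. Tissue was minced, digested, strained, cleared of red and of dead cells, and loaded on a Chromium droplet platform that reads transcripts from the 3′ end, with no sorting named. The matrix holds 58078 barcodes in 6 libraries marked by barcode suffixes 1 to 6, and 0 of the 6 could be tied to a labelled rat. Irradiated and control animals were therefore not compared, no library is called a replicate of a condition, and no p-value is given. Every gene difference is a description, because the members were chosen on RNA levels of the same cells.

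Astrocytes take up glutamate and potassium released by neurons, return glutamine, pass water at their endfeet through Aqp4, and join one another through gap junctions built of Gja1 and Gjb6. Protoplasmic astrocytes of grey matter often carry less Gfap than fibrous, border and reactive astrocytes. Whether the Gfap limit used here separates such classes in the hippocampus was not tested. In the hippocampus, radial glia-like stem cells of the dentate gyrus share many astrocyte genes.

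Members were present in each library, at unequal shares. From library 1 to library 6 there were 367, 857, 1021, 2213, 1534 and 1197. They made up 6.51%, 9.83%, 10.4%, 27.3%, 19.2% and 22.9% of the passing barcodes, lowest in library 1 and highest in library 4. As a share of astrocyte barcodes they were 85.2%, 82.3%, 87.7%, 75.4%, 70.6% and 73.2%, a narrower spread. Their median depth was 7884, 10374, 4556, 7604, 9764 and 8085 UMIs, lowest in library 3. The median mitochondrial share of members lay between 11.4% and 15.9% across libraries, against 3.92% to 9.10% in non-astrocyte barcodes.

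Gfap formed a continuous distribution with no gap at the limit of 2. There were 1258 members between 1.5 and 2 Gfap UMIs per 1000, and 760 Gfap-high barcodes between 2 and 2.5. Gfap RNA was low in members rather than absent: summed over members it was 956 CPM (UMIs scaled to an equal total for each group), against 3497 in Gfap-high astrocytes and 125 in non-astrocyte barcodes. A total of 393 members (5.47%) held 0 Gfap UMIs, and 176 of them came from library 3. These 393 had a median of 3236 UMIs, the shallowest of the Gfap levels described. When every barcode was thinned at random to 1500 UMIs, 78.7% of members stayed Gfap-low, 18.0% became Gfap-high and 3.32% left the astrocyte class. Of the 2189 Gfap-high barcodes, 329 became Gfap-low. At the floor for the astrocyte genes, 171 members lay between 5 and 6 per 1000, and 120 barcodes that met the other limits lay between 4 and 5.

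**Figure D1:**
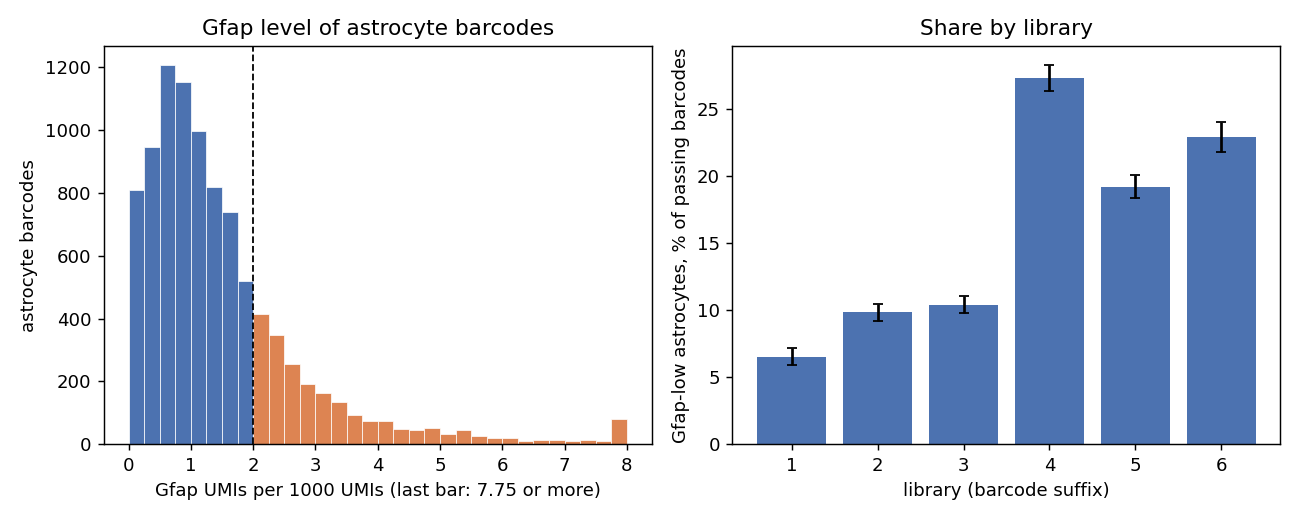
Left, the number of astrocyte barcodes of all 6 libraries by Gfap UMIs per 1000 UMIs, with Gfap-low in blue, Gfap-high in orange and the limit of 2 as a dashed line. Right, Gfap-low astrocytes as a percentage of the passing barcodes of each library with exact 95% binomial intervals; the counts fall smoothly through the limit, and the share runs from 6.51% to 27.3%.

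Library 3 stood apart before any comparison. Eif2s3y, a gene of the Y chromosome, was at 78.0, 80.4, 0, 83.5, 79.4 and 81.2 CPM in members of libraries 1 to 6. Kdm5d, another Y-linked gene, had 0 UMIs in members of library 3 and 67 or more in each other library. The 0 in library 3 allows up to 0.596 CPM (3 UMIs), and it goes against the label of male rats. Among members, 3 barcode sequences occurred in more than 1 library. Another 1231 barcodes over the astrocyte floor were left out by the C1q or myelin limits. No doublet caller was run, so mixed droplets below those limits may remain among the members and were not counted.

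The 4 markers given for these cells were all high in members; Gja1 and Aqp4 are part of the rule's sum, which sets their difference from non-astrocyte barcodes. Gja1, the main gap junction protein of astrocytes, was at 4038, 4202, 3722, 4814, 4541 and 4519 CPM in libraries 1 to 6. The non-astrocyte barcodes had 113, 126, 107, 420, 197 and 214. Slc7a10, a carrier of serine and other small amino acids, was at 554, 482, 744, 530, 473 and 505 CPM in members against 18.9, 21.3, 22.6, 69.7, 28.9 and 31.4. Grin2c, an NMDA receptor subunit, was at 742, 487, 747, 681, 508 and 672 CPM against 24.8, 20.7, 23.5, 104, 30.8 and 43.7. Aqp4, the water channel, was at 1574, 1630, 998, 1873, 1749 and 1814 CPM, lowest in library 3, against 54.6, 57.0, 33.1, 195, 97.2 and 122. After thinning to 1500 UMIs, 52.9% of members held a Slc7a10 UMI and 4.29% of non-astrocyte barcodes did. At their own depth the shares were 90.8% and 13.1%. Grin2c gave 59.7% and 5.04% after thinning, and 94.0% and 14.6% without it. Non-astrocyte values for these markers were highest in library 4, where 59.2% of the non-astrocyte barcodes held 1 to 5 astrocyte UMIs per 1000, against 9.60% to 26.6% elsewhere.

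**Figure D2:**
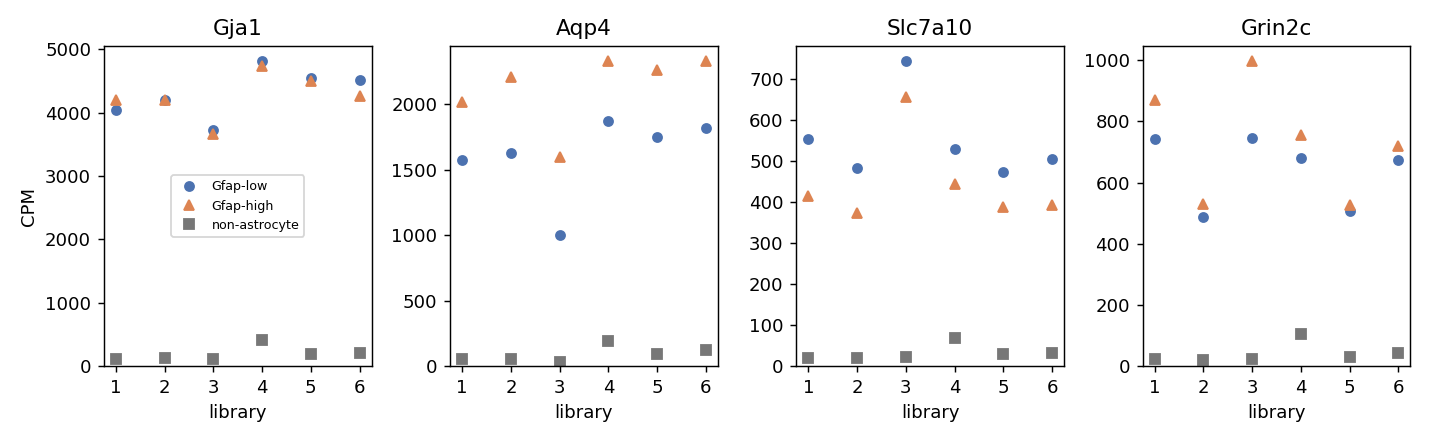
Summed UMIs as CPM (linear axes from 0, 1 panel a gene) of the 4 markers in each library, for Gfap-low astrocytes, Gfap-high astrocytes and non-astrocyte barcodes. Both astrocyte groups lie far above the non-astrocyte barcodes in each library. Aqp4 and Grin2c are higher and Slc7a10 lower in Gfap-high than in Gfap-low astrocytes.

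Against the non-astrocyte barcodes, which were mostly rich in microglial RNA, members were high in genes of transmitter clearance, ion and water transport, lipid synthesis and secreted synaptic factors. A gene counts as called here when its summed CPM differed past 2-fold, with 10 CPM added to both sides, and in the same direction in 6 of 6 libraries. Of 9894 genes compared, 20.5% were called higher and 14.8% lower, and the median log2 ratio over all of them was 0.23. Because so many genes were called and the members were chosen on astrocyte genes, list counts are read beside that background and show nothing particular to a list. Pooled ratios weigh libraries by their summed UMIs, and some lie outside the range of the 6 libraries.

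The leading genes outside the rule were Ntm, a cell adhesion molecule, at 1099 CPM against 38.7 (log2 ratio 4.51, from 3.46 to 5.01 over libraries), and Plpp3, a lipid phosphatase, at 2628 against 119 (log2 4.36). Agt, the precursor of angiotensin, was at 2596 CPM against 123. They were followed by Slc1a2, Slc4a4, Luzp2, Atp1b2, Scg3, Col27a1, Nwd1, Gabra2, Bcan, Sparcl1, Sox9 and Htra1. Over these 12 the log2 ratio ran from 4.22 for Slc1a2 to 3.98 for Htra1. The lowest were genes of microglia and other phagocytes. Ctss, a lysosomal protease, was at 468 CPM in members and 15359 in non-astrocyte barcodes (log2 ratio -5.01), and Fcgr2a, Cx3cr1, Anxa3, Selplg, Laptm5, Tmem176a, P2ry12 and Ier3 were also among the lowest.

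Glutamate and GABA handling stood high. Of 13 compared genes of glutamate uptake and cycling outside the rule, 10 were called higher and 0 lower, with a median log2 ratio of 2.31. Slc1a2, the main glutamate transporter of forebrain astrocytes, was at 1299, 1684, 569, 1872, 2040 and 1996 CPM in members of libraries 1 to 6, lowest in library 3, against 52.0, 53.8, 21.1, 200, 113 and 130 in non-astrocyte barcodes. Glul, which makes glutamine from glutamate, was at 5982 CPM against 973. Grm5, a glutamate receptor known from young astrocytes, was low at 13.5 CPM, against 0.764. All 9 compared genes of GABA uptake, breakdown and reception were called higher (median log2 3.20), among them the receptor subunit Gabbr1 at 821 CPM against 74.3 and the enzyme Maob at 250 against 18.4. Of 14 genes of serine and glycine metabolism, 10 were called higher and 1 lower. Phgdh, the first enzyme of serine synthesis, was at 351 CPM against 35.9, and Gldc, of glycine cleavage, at 200 against 12.4.

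Of 16 ion, water and junction genes outside the rule, 14 were called higher and 0 lower (median log2 2.92). Atp1b2, a sodium pump subunit, was at 1224 CPM against 57.7. The potassium channel Kcnj10 was at 316 CPM against 32.5, and the gap junction gene Gjb6 at 475 against 23.2. Car2, a carbonic anhydrase, was not called, at 330 CPM against 221.

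Energy and lipid genes were also on the higher side. Of 21 glycolysis, lactate and glycogen genes, 12 were called higher and 2 lower. Aldoc, the brain aldolase, was at 5267 CPM against 399 and Pygm, a glycogen phosphorylase, at 267 against 19.0. Ldha, the lactate dehydrogenase subunit of glycolytic cells, was lower, at 84.6 CPM against 190, while Ldhb was higher, at 956 against 159. Of 19 fatty acid genes 17 were called higher and 0 lower, with Acsl3 at 1086 CPM against 137 and Cpt1a, the gate to mitochondrial fatty acid oxidation, at 123 against 11.5. Of 19 cholesterol synthesis genes 15 were called higher and 1 lower. Cyp51 was at 559 CPM against 66.6 and Hmgcs1 at 389 against 55.5. Apoe, the main lipid carrier of the brain, was at 30943, 42620, 45014, 35445, 39570 and 39468 CPM in members of libraries 1 to 6. It was also abundant in non-astrocyte barcodes, at 4751 to 18085 CPM, but the groups did not overlap.

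Regulators of astrocyte identity and receptors followed. Of 22 compared transcription factors 18 were called higher and 1 lower, with Sox9 at 784 CPM against 40.0, Sox2 at 756 against 49.8 and Id4 at 639 against 34.1. Of 22 receptors of Notch, Wnt, FGF, BMP and related signals 18 were called higher and 1 lower, led by Ntrk2 at 1634 CPM against 94.8. Of 28 secreted factors 23 were called higher and 3 lower. Sparcl1 was at 8021 CPM against 491 and Clu at 5664 against 399, whereas Cst3, a protease inhibitor that microglia also make in quantity, was at 11343 against 69624.

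Reactive astrocyte genes were mostly low. Of 11 compared pan-reactive genes 2 were called higher, Gfap, which the rule used, and Aspg at 25.2 CPM against 1.55, and 6 were called lower (median log2 -1.03). Vim, an intermediate filament gene, was at 10.5 CPM against 153, Lcn2 at 0.321 against 0.301, and Cxcl10 at 2.57 against 48.3. Of 8 genes of the A1 list 1 was higher (Amigo2) and 6 lower, and of 3 of the A2 list 0 were higher and 3 lower. As background, microglia also make several of these genes. Of 5 compared markers of radial glia-like stem cells, 3 were higher: Sox2, Fabp7 at 255 CPM against 43.3, and Hopx at 104 against 34.3. Nes was lower, at 3.33 CPM against 26.7. The cell cycle list had 0 of 8 higher and 6 lower, with Mki67 at 1.76 CPM against 28.7.

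**Figure D3:**
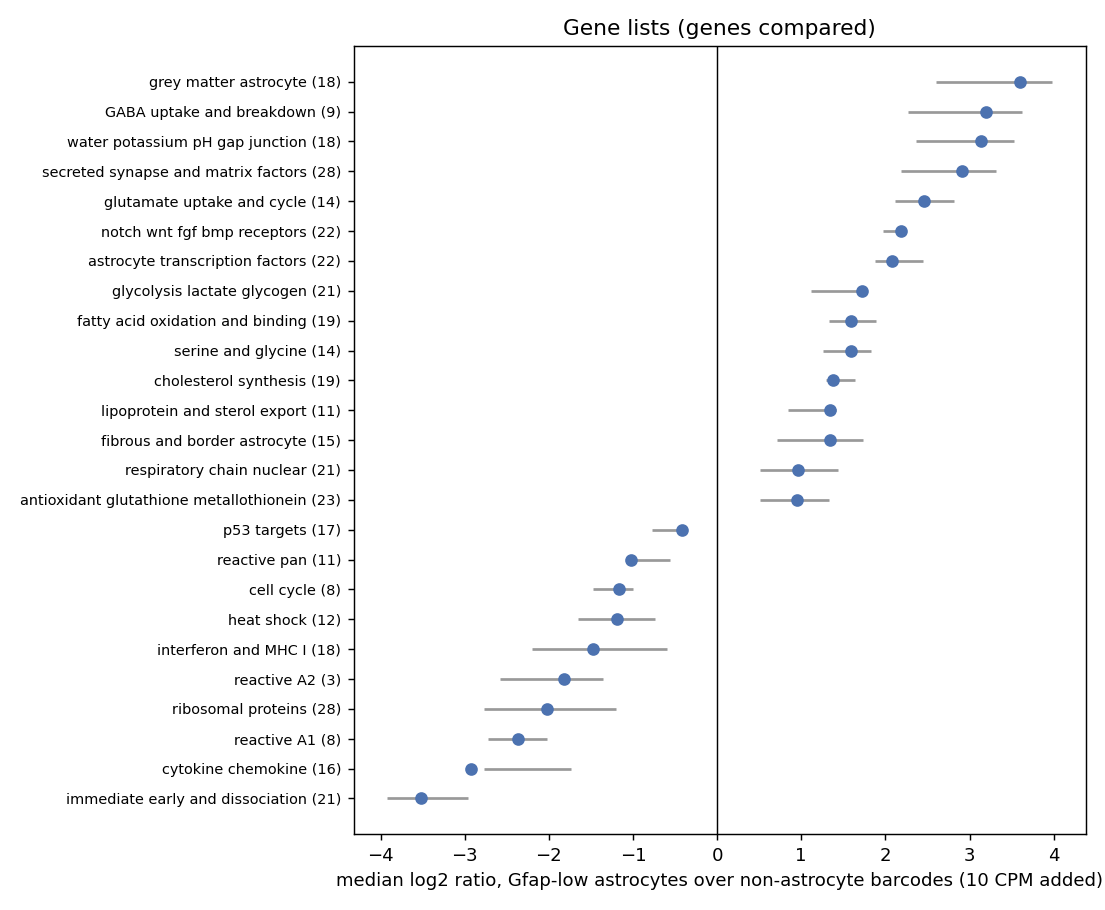
Median log2 ratio of each gene list other than the cell type markers (rule genes included), Gfap-low astrocytes over non-astrocyte barcodes with 10 CPM added to both; points are the pooled medians, grey lines run from the lowest to the highest of the 6 libraries, and the number of genes compared is in brackets. Among these lists, grey matter, GABA and ion transport lie highest and the immediate early list lowest at -3.52, against a median of 0.23 over all genes; the pooled medians of 3 lists (cytokines, pan-reactive genes and receptors) lie outside their library ranges.

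Marker RNA of other cell types was also measured in members. Of 9 microglia markers outside the rule 8 were called lower and 0 higher; the other 3 are the C1q genes, which the rule limits. Cx3cr1, a microglial chemokine receptor, was at 104, 138, 102, 37.9, 40.5 and 21.0 CPM in members of libraries 1 to 6, and at 2313, 2454, 2374, 888, 923 and 674 in non-astrocyte barcodes. The members' value was thus 3.11% to 5.62% of the other in each library. Over these 9 markers the median of this percentage ran from 3.11% to 5.95%. The summed level of the 9 was 976 CPM in members and 25071 in non-astrocyte barcodes. For 5 oligodendrocyte markers outside the rule the median percentage was higher, from 8.46% to 37.1% over libraries, and Cnp reached 113% in library 6. Macrophage markers summed to 87.6 to 430 CPM in members over libraries and to 1864 to 16630 in non-astrocyte barcodes. Neuroblast markers summed to 280 to 413 CPM in members, most of it Cd24 (235 CPM pooled), and to 208 to 1078 in non-astrocyte barcodes. Oligodendrocyte precursor markers summed to 94.5 to 144 CPM against 45.2 to 223. In library 6 both of these sums were above the non-astrocyte barcodes, at 308 CPM against 208 and 94.5 against 45.2. The precursor sum was also above them in library 3, at 120 CPM against 73.1. Immediate early genes, which also respond to tissue dissociation, had 0 of 21 called higher and 19 lower (median log2 -3.52). Fos was at 135 CPM in members against 3118, and the median percentage over the 21 genes ran from 4.90% to 8.10% across libraries. The cytokine and chemokine list had 2 of 16 higher, Cxcl14 at 357 CPM against 22.8 and Cx3cl1 at 46.3 against 2.90, and 12 lower. The part of RNA carried over from other cells in these low values was not tested. Ribosomal protein genes were lower for all 28 compared (median log2 -2.02), and heat shock genes for 6 of 12.

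Gfap-low and Gfap-high astrocytes were much alike. Of 8821 genes compared, 0% were called higher in Gfap-low and 0.068% lower, which is 6 genes including Gfap itself. The other 5 were Gsn, an actin-severing protein, Id3, a regulator of BMP response, S100a4, a calcium-binding protein, Gal, the neuropeptide galanin, and Cebpd, a transcription factor of inflammatory responses. Gsn was at 18.9 CPM in Gfap-low and 58.4 in Gfap-high astrocytes (log2 ratio -1.24, from -1.43 to -0.92 over libraries). Id3 was at 86.2 and 198 CPM (log2 -1.11), S100a4 at 20.5 and 53.1, Gal at 10.8 and 33.0, and Cebpd at 50.5 and 112. In the library nearest to 0 the log2 ratio was -0.01 for both Gal and Cebpd. After thinning to 1500 UMIs the 5 genes were no longer past 2-fold, at log2 ratios of -0.95 for Gsn, -0.67 for Id3, -0.63 for S100a4, -0.77 for Gal and -0.65 for Cebpd, and with the Gfap limit at 1 per 1000 they were at -0.86, -0.90, -0.92, -0.96 and -0.61. The largest positive log2 ratio was 0.84, for Spon1, at 22.6 CPM in Gfap-low and 8.25 in Gfap-high astrocytes. The 10 CPM added to both sides lowers the ratio of genes at such levels. With 1 CPM added, 5 genes were called higher and 14 lower.

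At a lower threshold of 1.5-fold, which was added after the values were seen, 16 genes (0.181%) were higher and 22 (0.249%) lower in Gfap-low astrocytes. The 16 were Spon1, Inka2, Olig1, Heyl, Nnat, Igfbp2, Kcnj16, Cables1, Olig2, Gli1, Mpp6, Nrarp, Gabbr2, Slc13a5, Etv4 and Slc6a9. Heyl, a Notch target, was at 101 CPM against 53.8 (log2 ratio 0.80), and Nrarp, a Notch feedback gene, at 122 against 73.7. Kcnj16, a potassium channel subunit, was at 97.7 against 53.3, and Gli1, a target of hedgehog signalling, at 17.0 against 6.56. Olig1 and Olig2, transcription factors of the oligodendrocyte lineage that some astrocytes also carry, were at 37.0 and 15.4 CPM against 16.9 and 5.14. Beside the 6 above, the lower genes were Disp3, C4a, Sema3d, Cd44, Greb1, Nrp2, Cxcl12, Cd9, C1r, Aebp1, S100a3, Flnc, Stac2, Pcdh8, Id1 and Syne2. Cd44, a hyaluronan receptor of fibrous and reactive astrocytes, was at 15.9 CPM against 34.8.

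Slc7a10, Aqp4 and Grin2c, all given markers, differed modestly with Gfap in each library. Slc7a10 was at 554, 482, 744, 530, 473 and 505 CPM in Gfap-low and at 414, 374, 657, 444, 387 and 393 in Gfap-high astrocytes, higher in Gfap-low in 6 of 6 libraries. Aqp4 was at 1574, 1630, 998, 1873, 1749 and 1814 CPM in Gfap-low and 2016, 2207, 1599, 2326, 2258 and 2329 in Gfap-high, lower in Gfap-low in 6 of 6. Grin2c was at 742, 487, 747, 681, 508 and 672 CPM in Gfap-low astrocytes, also lower in 6 of 6 libraries. In Gfap-high astrocytes it was at 869, 530, 997, 755, 526 and 720. Of all genes, 6.41% were higher and 6.50% lower in 6 of 6 libraries at any fold. Lists differed little: the pan-reactive median was -0.50 over 7 genes, that of fibrous and border astrocytes -0.36 over 14, and that of grey matter astrocytes 0.17 over 18, beside a median of 0.00 over all genes.

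Along the Gfap level most of these genes shifted gradually, with no break at the limit except for a late increase of a few. Grin2c had no steady shift, at 658, 601, 631, 666 and 609 CPM from the lowest to the highest Gfap level. Astrocyte barcodes were split at 0, above 0 to under 1, 1 to under 2, 2 to under 5, and 5 or more Gfap UMIs per 1000, with 393, 3722, 3074, 1892 and 297 barcodes. Slc7a10 was at 799, 558, 467, 420 and 368 CPM from the lowest to the highest Gfap bin, and Nrarp at 191, 139, 97.9, 78.6 and 42.3. Spon1 was at 46.2, 30.0, 12.4, 8.37 and 7.54 CPM. In the other direction, Aqp4 was at 1204, 1624, 1835, 2154 and 2944 CPM, and S100a4 at 10.9, 15.3, 27.2, 43.6 and 114. Gsn was flat below the limit and high in the top bin, at 21.2, 15.5, 22.7, 39.0 and 183 CPM. Of the 16 genes higher in Gfap-low past 1.5-fold, 8 were lower at each step up in Gfap, and of the 21 lower ones other than Gfap, 13 were higher at each step. Without library 3, which supplied 176 of the 393 barcodes at 0, these counts were 7 and 16, and Slc7a10 ran 717, 539, 456, 412 and 365 CPM. The top bin held 3 barcodes of library 1, so the order within libraries was read between the bins above 0 to under 1 and 2 to under 5. There all 16 and all 21 genes kept the pooled order in 6 of 6 libraries, which their choice on nearly the same contrast largely fixes.

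**Figure D4:**
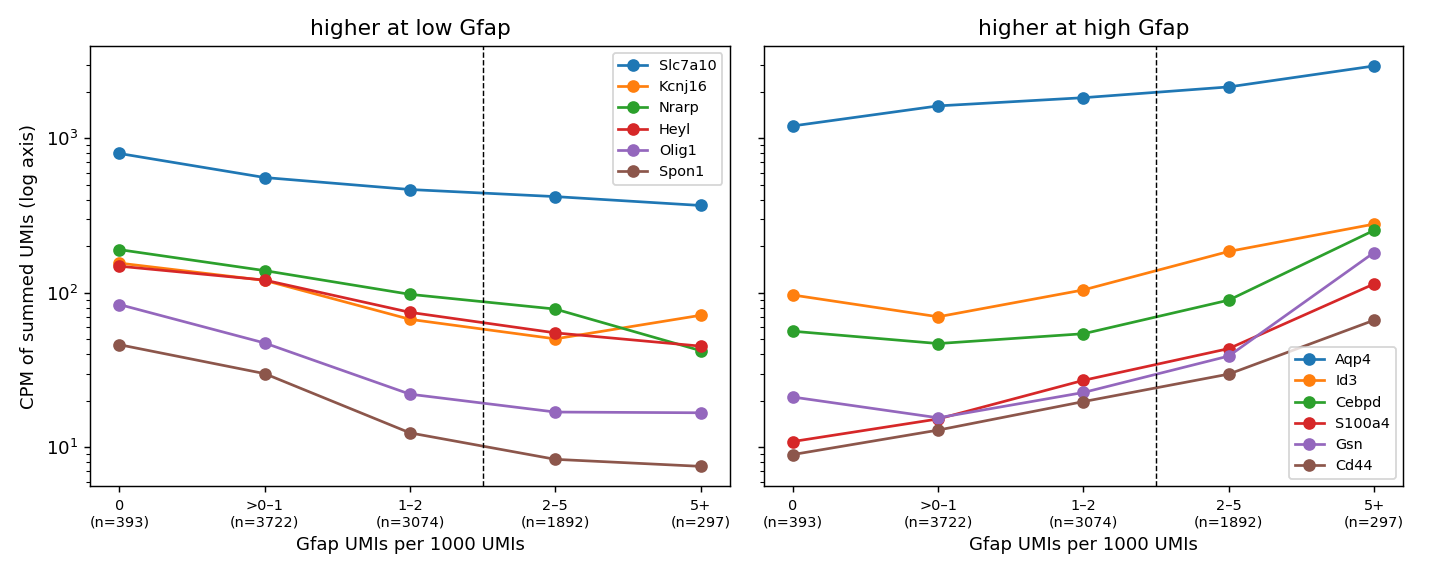
CPM of summed UMIs (log axes) of 6 genes higher at low Gfap and 6 higher at high Gfap, in 5 bins of Gfap UMIs per 1000 UMIs with the number of astrocyte barcodes n below each bin; the dashed line marks the limit between Gfap-low and Gfap-high. Slc7a10 falls from 799 to 368 CPM and Aqp4 rises from 1204 to 2944 CPM, with no jump at the limit, and Gsn and Cebpd are highest in the top bin.

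Variation among members was measured within libraries. With members thinned to 1500 UMIs, the variance of a gene's counts divided by their mean had a median of 1.02 over the 3803 genes with a mean of at least 0.05 UMIs, a minimum set after the values were seen. A ratio near 1 is what counting alone gives, and at such low means variation between cells raises it little. The ratio was at least 1.5 for 43 genes (1.13%). Apoe, at 38809 CPM in members, had the largest ratio, 7.45 (median of 6 libraries). For an equal relative variation the ratio grows with the mean, so abundant genes rank high by it. The rest of the first 10 were Fos (3.03), Cst3 (2.61) and 7 genes of the mitochondrial genome, Mt-co2, Mt-atp6, Mt-co1, Mt-co3, Mt-cyb, Mt-nd4 and Mt-nd1, between 2.33 and 4.22. Fos had a thinned UMI in 11.7% of members, and the highest 5% of members held 65.1% of its thinned UMIs. For Apoe, found in 100%, that share was 9.92%. Counting alone raises the share of a gene with few UMIs, so these shares are not on 1 scale.

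Between libraries, 578 of the 8653 genes at 10 CPM or more in members (6.68%) had a ratio of at least 2 between the highest and the lowest library. Without library 3 the number was 104 (1.20%). The 10 largest ratios were those of Sncg, Eif2s3y, Ccl5, Mt-atp8, S100a9, Slfn4, Cxcl2, Ptgds, Ctss and Ccl3. Sncg, gamma-synuclein, was at 238, 134, 4.97, 335, 3.33 and 328 CPM in members of libraries 1 to 6, low in libraries 3 and 5. In non-astrocyte barcodes it was at 16.5, 10.4, 0.951, 86.2, 0.569 and 46.5 CPM, low in the same libraries. Ctss was at 701, 1014, 1043, 324, 279 and 154 CPM in members and at 17892, 20294, 24844, 8235, 7503 and 6004 in non-astrocyte barcodes. Slfn4 was at 3.46, 3.59, 6.36, 81.5, 59.1 and 22.6 CPM, and at 50.8, 48.6, 23.3, 747, 1006 and 631 in non-astrocyte barcodes.

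Some genes induced by the DNA damage factor p53 differed between libraries as well. Of 12 targets at 10 CPM or more in members, 4 (Cdkn1a, Phlda3, Ccng1 and Fas) had a ratio of at least 2 between the highest and lowest library, also without library 3, and 8 did not. Against non-astrocyte barcodes, 0 of 17 compared p53 targets were called higher and 8 lower: Cdkn1a, Bbc3, Pmaip1, Gadd45a, Btg2, Plk2, Plk3 and Gdf15. Cdkn1a, the cell cycle inhibitor p21, was at 2.77, 1.91, 1.39, 31.5, 47.3 and 42.2 CPM in members of libraries 1 to 6, lowest in library 3 and highest in library 5. Non-astrocyte barcodes had 32.8, 22.5, 57.3, 142, 178 and 152 CPM. The members' value was 8.44%, 8.47%, 2.43%, 22.2%, 26.6% and 27.7% of the other, a percentage that for Cx3cr1 was 3.11% to 5.62% and for Lyz2, a macrophage gene, 2.27% to 4.94%. Phlda3 and Fas, a repressor of Akt and a death receptor, were chosen for the text after their values were seen. Phlda3 was at 1.73, 1.57, 4.97, 20.9, 33.0 and 34.2 CPM. Fas was at 1.39, 1.35, 6.55, 11.1, 13.9 and 14.6 CPM in members and at 1.23, 1.47, 2.39, 5.29, 4.56 and 3.73 in non-astrocyte barcodes. Ccng1, cyclin G1, was at 61.7, 31.7, 43.1, 107, 87.5 and 122 CPM. Mdm2, the ubiquitin ligase that p53 induces against itself, also chosen after its values were seen, stayed between 30.1 and 35.1 CPM, and Bax, a pore-forming protein of apoptosis, between 60.6 and 104.

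**Figure D5:**
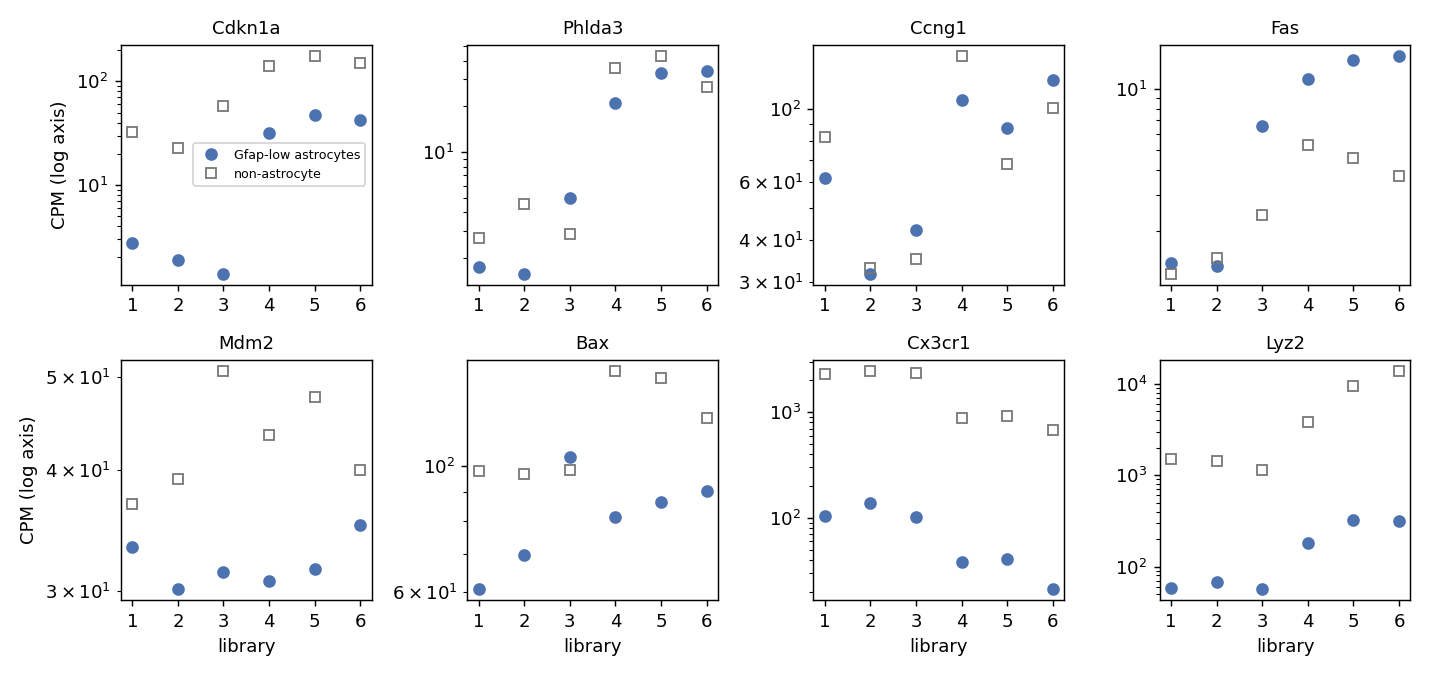
CPM (log axes with a scale of their own in each panel) of 6 p53 targets, the microglia gene Cx3cr1 and the macrophage gene Lyz2 in each library, with filled circles for Gfap-low astrocytes and open squares for non-astrocyte barcodes. Cdkn1a in members runs from 1.39 to 47.3 CPM and Mdm2 from 30.1 to 35.1; Cx3cr1 and Lyz2 in members lie far below the non-astrocyte barcodes in each library.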

How the data were processed

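The deposited matrix holds UMI counts per gene and barcode, written by Cell Ranger 7.0.0 per the file headers. Per the submitters' processing notes the build is mm10, a mouse build, yet all 30452 gene identifiers are rat Ensembl ones, so no coordinates are printed. Rows that share a symbol were summed, which left 28293. How intron reads were treated and which annotation was used is not given in the sources used here. Barcodes were classed by the rule given, counts were summed by class and library and scaled to CPM, and log2 ratios had 10 CPM added to both sides. Genes with at least 10 CPM in either group were compared. Thinning drew 1500 UMIs per barcode without replacement. Free RNA was not removed, and doublets were limited by the C1q and myelin limits alone. The depth was 2886235 to 17866279 summed UMIs of members per library.

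Members and gene lists were chosen with earlier results of these data known. Named genes were the 15 highest and 10 lowest called per comparison, leaving out genes of the rule and unnamed identifiers. To them came up to 4 members per list with the highest CPM and those past 2-fold. The 10 genes with the largest variance over mean and the 10 with the largest library ratio completed them. Of these, the text prints a part, and a few genes that the rule selects are not reported here. Also named, after their values were seen, were the genes past 1.5-fold, Phlda3, Fas, Mdm2, Kdm5d and some list members that were not called. The comparison was tested on simulated data with Python 3.11.15, NumPy 2.4.6, SciPy 1.17.1 and pandas 2.3.3.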

Additional observations from a re-analysis of the deposited data

Results flagged for a closer look

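In 9 of 41 sets of 6 library values examined in members, 1 library lay apart by Dixon's test, and in 7 of the 9 it was library 3. Chance gives about 1 in 20 such sets, and the genes examined were partly chosen after their values were seen. In library 3, 17.2% of members had 0 Gfap UMIs, against 2.49% to 7.90% elsewhere, and Eif2s3y was at 0 CPM against 78.0 to 83.5. Also in library 3, Ccl3 was at 172 CPM (others 18.7 to 58.7), Aqp4 at 998 (1574 to 1873), Slc7a10 at 744 (473 to 554), Igfbp2 at 185 (68.6 to 107) and Itih3 at 1806 (784 to 1098). Cxcl2 was at 62.9 CPM in library 6 (others 1.04 to 21.8), and Gal at 21.3 CPM in library 2 (others 6.89 to 9.91). Non-astrocyte barcodes were highest in the same libraries for both chemokines, with Ccl3 at 2670 CPM in library 3 and Cxcl2 at 2486 in library 6. The part of carried-over RNA in the members' chemokine values was not tested. Library 3 also had the lowest median depth of members, 4556 UMIs, and the part of depth in its values was not tested.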

How the results depend on the processing

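The share of Gfap-low astrocytes among passing barcodes was 16.3% with at least 3000 UMIs, 7.09% at a mitochondrial limit of 10%, 20.2% with no such limit, 11.1% with astrocyte genes at 10 per 1000, 9.05% with Gfap under 1, 0.864% with no Gfap UMI, 14.1% with C1q at most 1, 13.5% after thinning, and 13.3% to 17.3% with 1 library left out. The share of astrocyte barcodes below the Gfap limit was 78.1% with no mitochondrial limit, 43.9% with Gfap under 1, 4.19% with no Gfap UMI, 66.3% after thinning and 75.1% to 78.5% with 1 library left out. Against Gfap-high astrocytes, 1 gene was higher at a mitochondrial limit of 10%, 1 higher and 1 lower with Gfap under 1, 17 higher and 2 lower with no Gfap UMI, 1 lower after thinning, 5 higher and 14 lower with 1 CPM added, 4 higher with libraries weighted equally, 7 higher and 37 lower against Gfap at 5 or more, and 0 to 1 higher and 4 to 7 lower with 1 library left out. Without library 5, 1 gene was higher. At 1.5-fold, added after seeing the data, 16 were higher and 22 lower. Under the limit of 10%, no Gfap UMI and Gfap at 5 or more, 3 libraries had 50 barcodes on both sides, which makes the same sign in each library easier to meet. Against non-astrocyte barcodes, no alternative moved either count by over 1.5 times. The cause of these shifts was not tested. No value past 2-fold changed sign. Of list medians under the alternatives, 36 had the other sign, each with a size of at most 0.34 in the values reported, and against Gfap-high astrocytes the median over all genes was 0.04 with no Gfap UMI. Of the list medians recomputed 1102 moved by less than the spread between libraries and 158 by more; for named genes the numbers were 521 and 79. The alternatives were not run for the values between libraries, along the Gfap level and among members, except for leaving out library 3 where given. No paired analysis was possible because no library could be tied to a numbered sample. Depth limits the calling of a barcode as Gfap-low, as the thinned share shows.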

Other observations

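Among p53 targets at 10 CPM or more in members, the 6 library values of Cdkn1a, Phlda3, Ccng1, Fas, Aen and Sesn2 formed separate sets. Cdkn1a was at 2.77, 1.91 and 1.39 CPM in libraries 1, 2 and 3 and at 31.5, 47.3 and 42.2 in libraries 4, 5 and 6. Phlda3 was at 1.73, 1.57 and 4.97 CPM, then 20.9, 33.0 and 34.2, and Ccng1 at 61.7, 31.7 and 43.1, then 107, 87.5 and 122. Fas was at 1.39, 1.35 and 6.55 CPM, then 11.1, 13.9 and 14.6, and Aen at 12.5, 13.5 and 19.7, then 24.1, 26.8 and 31.3. The sets lay closest for Sesn2, at 31.5, 26.3 and 18.9 CPM, then 34.4, 34.8 and 37.5. Among the targets under 10 CPM, Bbc3 fell into the same sets, whereas Pmaip1, Plk2, Plk3, Gdf15 and Tnfrsf10b did not. Mdm2, at 33.3, 30.1, 31.4, 30.7, 31.6 and 35.1 CPM in libraries 1 to 6, and Bax, at 60.6, 69.7, 104, 81.4, 86.4 and 90.4, did not fall into these sets. Neither did Sesn1, Gadd45a, Zmat3 and Btg2. In Gfap-high astrocytes Cdkn1a was at 0, 1.12, 1.83, 37.1, 52.2 and 53.5 CPM, and in non-astrocyte barcodes Phlda3 was at 2.71, 4.54, 2.88, 35.9, 43.1 and 26.9. Ccng1 in non-astrocyte barcodes, at 82.5, 32.9, 35.0, 146, 68.3 and 101 CPM, did not fall into the sets. Lyz2 in members was at 58.9, 68.3 and 56.4, then 180, 323 and 313 CPM, and Cx3cr1 at 104, 138 and 102, then 37.9, 40.5 and 21.0. Sncg fell otherwise, with libraries 3 and 5 at 4.97 and 3.33 CPM and the other libraries at 134 to 335. The sets were seen in these same values, carry no label and were not compared by a test. Lyz2 and Cx3cr1, outside the p53 list, also fell into them. The share of all genes in members that fall into the same sets was not counted. The number of p53 targets in the sets therefore shows nothing particular to p53.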
